A study of Mus musculus and Rattus norvegicus with 24 samples.

Results

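The genes described here encode the voltage-gated sodium channels, the voltage-gated calcium channels and the hyperpolarization-activated cyclic nucleotide-gated (HCN) channels, with their auxiliary subunits. They were every gene whose symbol on the array platform was Scn with a number and a or b, or began with Cacna, Cacnb or Cacng, or was Hcn with its number, and that had a transcript cluster of its own, a cluster being the set of probes read out as 1 value. Where a symbol had several such clusters, the one with the highest mean was taken. The rule gave 41 genes in all, 39 of the 22180 genes tested in mouse and 38 of the 18166 tested in rat, with 36 measured in both species. Scn4a and Cacnb3 were not analysed in mouse, nor Scn3a, Cacna1s and Cacng8 in rat.

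Sodium channel alpha subunits form the pore that opens on depolarization and carries the rising phase of the action potential, while the beta subunits set gating and membrane anchoring. Calcium channel alpha1 subunits form the pore of L-type channels of cell bodies and dendrites and P/Q-, N- and R-type channels of synaptic terminals. They also form the pore of the low-voltage-activated T-type channels. Alpha2delta and beta subunits bring the L-, P/Q-, N- and R-type pores to the membrane. Most brain members of the gamma family (Cacng2, Cacng3, Cacng4, Cacng5, Cacng7 and Cacng8) act as TARPs, the transmembrane proteins that traffic and tune AMPA-type glutamate receptors, and HCN channels carry the cation current that opens on hyperpolarization. In ischaemic brain, loss of energy supply depolarizes neurons, and sodium and calcium entry through such channels is part of the classical account of early injury.

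The tissue came from adult male C57BL/6 mice aged 8 to 10 weeks and adult male Sprague-Dawley rats aged 8 to 12 weeks. A filament was passed up the carotid arteries to the origin of the middle cerebral artery and tied in place (MCAO, permanent occlusion), on the right in mice and on the left in rats, and sham animals had the same operation under isoflurane without occlusion. A 3 by 3 mm piece of penumbra, the tissue bordering the ischaemic core, or of the matching area on the operated side of a sham animal, was taken at 2 h or 6 h, and its RNA was read on whole-transcript arrays. There were 24 animals with 1 array each, 3 in each of 8 groups (species, surgery and time), and no group of unoperated animals was analysed here. The tissue is a mixture of cell types, so fewer cells of a type and less RNA per cell cannot be told apart in any value below.

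All values are deposited log2 values, on which a difference of 1 is a doubling. Array medians were 6.03 to 6.06 in mouse at 2 h, 5.92 to 5.96 in mouse at 6 h, 6.67 to 6.75 in rat at 2 h and 5.82 to 5.87 in rat at 6 h, so levels were compared within a time. The median SD between the 3 animals of a group lay between 0.0764 and 0.0999 for the channel genes, and 29 of the 39 mouse genes and 28 of the 38 rat genes had a mean level above that of the median gene. "Rose" and "fell" mean a limma adjusted p (Benjamini-Hochberg, over all genes of the species) under 0.05, and fold changes are log2 differences, MCAO minus sham, ± SE, with n = 3 per group. The neuron marker list, led by Rbfox3 (10.27 to 10.37 in mouse and 11.28 to 11.46 in rat over the 2 h arrays), stood high throughout. The markers of striatal projection neurons, which mark 1 brain region, differed between arrays: in mouse at 6 h their mean was 7.43 to 7.58 after MCAO and 8.45, 7.65 and 8.70 in sham replicates 1, 2 and 3.

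Promoter windows are shown for 3 genes chosen by their results below, Scn1a, Scn2a and Cacna2d3. Scn2a fell in both species, and the 6 h effects on Scn1a and Cacna2d3 differed between the species. Where a gene had several windows, the most upstream was taken. Each window shown runs from 250 bases before to 50 bases after a RefSeq transcript start (GRCm38.p6), 5′ to 3′ on the gene's strand. Capitals mark matches to the motifs searched. Scn1a is the window chr2:66440788-66441087 on the minus strand, Scn2a is chr2:65620519-65620818 on the plus strand, and Cacna2d3 is chr14:29721815-29722114 on the minus strand.
Scn1a: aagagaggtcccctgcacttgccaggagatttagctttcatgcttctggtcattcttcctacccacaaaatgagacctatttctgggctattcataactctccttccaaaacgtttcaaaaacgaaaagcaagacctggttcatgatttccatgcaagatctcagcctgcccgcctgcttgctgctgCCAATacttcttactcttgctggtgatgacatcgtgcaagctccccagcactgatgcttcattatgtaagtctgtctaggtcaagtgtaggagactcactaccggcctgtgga
Scn2a: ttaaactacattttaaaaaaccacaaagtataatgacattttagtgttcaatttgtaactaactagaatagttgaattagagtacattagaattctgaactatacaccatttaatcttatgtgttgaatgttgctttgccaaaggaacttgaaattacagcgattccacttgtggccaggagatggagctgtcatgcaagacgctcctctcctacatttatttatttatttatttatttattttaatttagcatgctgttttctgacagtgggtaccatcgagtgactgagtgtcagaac
Cacna2d3: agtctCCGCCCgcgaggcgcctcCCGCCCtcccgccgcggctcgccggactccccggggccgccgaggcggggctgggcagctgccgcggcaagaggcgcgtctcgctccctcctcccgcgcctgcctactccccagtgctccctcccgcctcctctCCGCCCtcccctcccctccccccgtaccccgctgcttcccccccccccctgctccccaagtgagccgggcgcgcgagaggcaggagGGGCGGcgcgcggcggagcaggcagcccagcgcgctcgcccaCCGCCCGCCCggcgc

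Guanine and cytosine made up 47.3% of the Scn1a window, 33.0% of the Scn2a window and 81.3% of the Cacna2d3 window, against a median of 52.7% over all 32851 mouse windows and 58.3% over the 40 windows of the 30 channel genes that had one. The motifs searched on both strands were the GC box (GGGCGG), the CCAAT box (CCAAT), the TATA box (TATAAA), the cAMP response element (TGACGTCA) and its core (TGACG, contained in the former), the AP-1 site (TGANTCA), the E box (CACGTG) and parts of the RE1 element (TTCAGCACC and GGACAG). The Cacna2d3 window held 6 GC box matches, of which the last 2 overlap, the Scn1a window held 1 CCAAT box, and the Scn2a window held none of the motifs. GC boxes were in 40.0% of the channel gene windows and 35.7% of all windows, CCAAT boxes in 22.5% and 37.4%, and TATA boxes in 5.0% and 13.6%. For the cAMP response element the shares were 0.0% and 1.79%, for its core 15% and 20.8%, for the AP-1 site 2.5% and 7.81%, for the E box 0.0% and 7.15%, and for the RE1 parts 0.0% and 0.371%, and 15% and 22.2%. These matches are letters in a window, and occupancy was not measured.

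At 2 h after occlusion, no channel gene in mouse differed from sham beyond the threshold. limma called 0 of 39, with 2 positive and 2 negative at an unadjusted p under 0.05, where 0.298% of all genes were called and 3.84% and 3.88% had such an unadjusted p. The median fold change of the channel genes was -0.04, against -0.0067 over all genes. Those 4 genes were Cacna1f (0.23, unadjusted p = 0.00874, adjusted p = 0.412), an L-type pore known from the retina, Cacna1s (0.20), the L-type pore of skeletal muscle, Scn7a (-0.29, unadjusted p = 0.0235, adjusted p = 0.564) and Cacng4 (-0.21). All 3 MCAO arrays lay above all 3 sham arrays for 2 genes and below them for 3, where 6.24% and 8.39% of all genes did.

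The main pore-forming genes of the brain lay close to sham in mouse at 2 h. Scn1a read 10.06, 9.90 and 10.27 after MCAO and 10.04, 9.94 and 9.99 in sham, and Scn2a read 10.85, 10.76 and 10.80 against 10.76, 10.82 and 10.85. In both genes the groups overlapped. Fold changes were 0.13 for Scn3a, an embryonically prominent alpha subunit, -0.05 for Scn8a, the alpha subunit of the axon initial segment and nodes, 0.05 for Cacna1a (P/Q-type), -0.04 for Cacna1b (N-type), 0.06 for Cacna1c (L-type) and 0.00 for Cacna1e (R-type). The lowest L-type value was that of Cacna1d (0.03). The T-type pores were all negative, from -0.09 for Cacna1g to -0.22 for Cacna1h, where 52.1% of all genes were negative. The sodium beta subunits ran from -0.22 for Scn3b to -0.03 for Scn2b. The alpha2delta genes spanned -0.08 (Cacna2d4) to 0.06 (Cacna2d1), the calcium beta genes -0.15 (Cacnb1) to 0.01 (Cacnb4), the gamma genes -0.21 (Cacng4) to 0.07 (Cacng3) and the HCN genes -0.09 (Hcn2) to 0.02 (Hcn3). None of these passed the test.

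**Figure D1:**
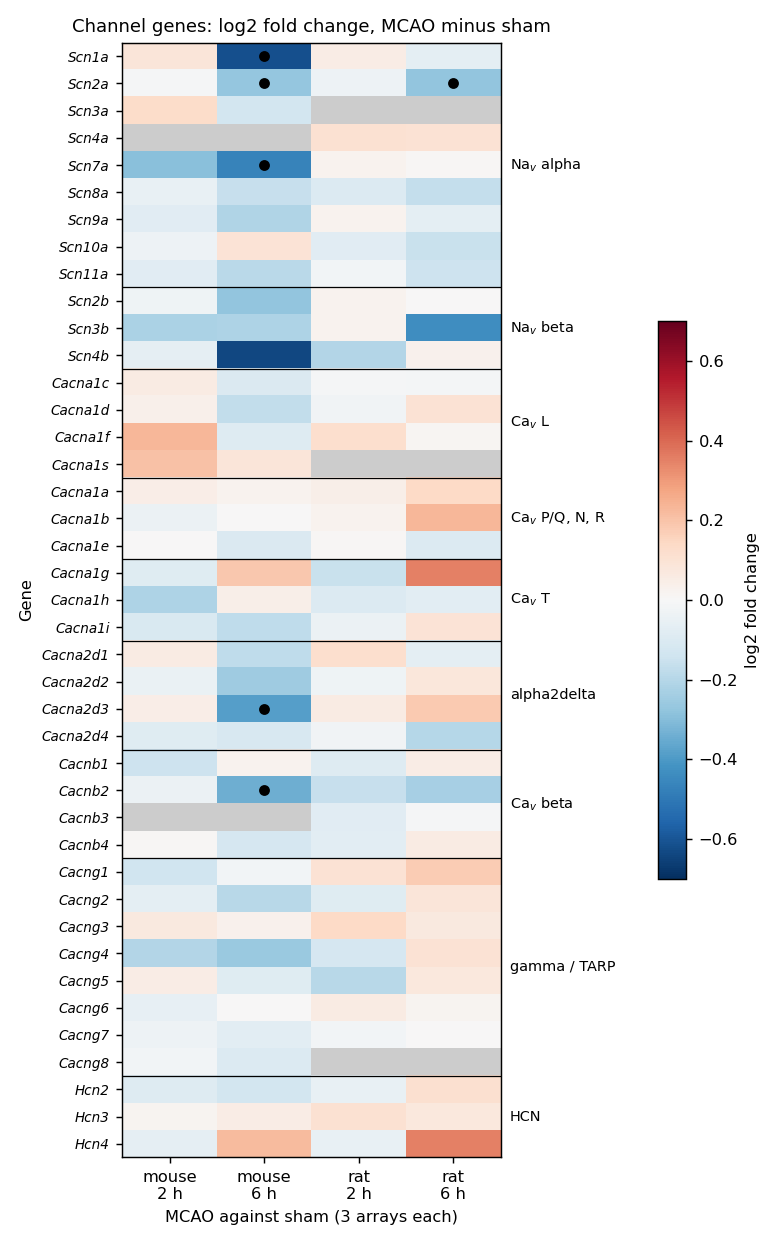
Log2 fold change (MCAO minus sham, 3 arrays per group) of each of the 41 channel genes in 4 comparisons, grouped by subunit type. Black dots mark limma adjusted p under 0.05 and grey cells mark genes not analysed in that species; dots stand at Scn1a, Scn2a, Scn7a, Cacna2d3 and Cacnb2 in mouse at 6 h and at Scn2a in rat at 6 h, all on falls.

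At 6 h in mouse, 5 of the 39 channel genes fell (12.8%) and 0 rose. Over all genes tested, 4.23% fell and 3.21% rose, 7.43% in all. The genes that fell were the sodium channel alpha subunits Scn1a, Scn2a and Scn7a and the calcium channel auxiliary subunits Cacna2d3 and Cacnb2. At an unadjusted p under 0.05 there were 13 negative and 2 positive channel genes, where 13.3% and 10% of all genes were. The median fold change of the channel genes was -0.12 against -0.017 over all genes, and 28 of 39 (71.8%) were negative against 53.6% of all genes. All 3 MCAO arrays lay below all 3 sham arrays for 17 channel genes and above them for 1, Hcn4, where 14.6% and 10.7% of all genes did. Without MCAO replicate 2, MCAO replicate 3 or sham replicate 3, the count that fell was 3, 3 or 1. Fitted to the 6 arrays of 6 h alone it was 1, and with trend and robust eBayes, which ties the prior spread to the level of a gene, it was 11, where 1.11% and 11.6% of all genes were called.

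Among the sodium channel alpha subunits, 3 of 8 fell, 0 rose and 5 did not pass. Scn1a, the alpha subunit prominent in fast-spiking interneurons and mutated in Dravet syndrome, read 9.16, 9.24 and 8.99 after MCAO and 9.79, 9.68 and 9.76 in sham. The highest MCAO array was well below the lowest sham array. The fold change was -0.61 ± 0.09 (95% interval -0.82 to -0.41, limma adjusted p = 0.00534), a level that fell by 34.6%. Scn2a, the alpha subunit of excitatory neurons and of the early axon initial segment, read 10.31, 10.29 and 10.11 after MCAO and 10.41, 10.49 and 10.62 in sham. The groups were apart by the gap between 10.31 and 10.41, and the fold change was -0.27 ± 0.07 (limma adjusted p = 0.0476). Scn7a, which encodes a sodium-sensing channel rather than one gated by voltage, read 5.60, 5.32 and 5.53 after MCAO and 5.81, 6.03 and 6.02 in sham, with a fold change of -0.47 ± 0.11 (limma adjusted p = 0.0295). Its MCAO levels and 1 sham level were below the array medians and the other sham levels just above them, and the files hold no detection calls. Scn8a (-0.16, adjusted p = 0.112) and Scn3a (-0.13, adjusted p = 0.352) had all MCAO arrays below sham without passing, and the highest value of the group was that of Scn10a (0.09), an alpha subunit of sensory neurons.

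The Scn1a call held whichever of the 6 arrays was left out (adjusted p = 0.0104 to 0.0236). The Scn2a call was lost without any 1 of MCAO replicates 1, 2 and 3 or sham replicates 2 and 3 (adjusted p up to 0.158), and the Scn7a call without any 1 of MCAO replicates 2 and 3 or sham replicates 2 and 3 (adjusted p up to 0.0996). In the RefSeq gene order of mouse chromosome 2, Scn3a and Scn2a are neighbours, and Scn1a, Scn9a and Scn7a follow each other beyond Csrnp3, Galnt3 and Ttc21b. The 3 alpha subunits that fell are thus in this cluster of 5, whose remaining members Scn3a and Scn9a were at -0.13 and -0.21 (adjusted p = 0.352 and 0.31).

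The sodium channel beta subunits all had negative values in mouse at 6 h, and 0 of 3 passed (2 with an unadjusted p under 0.05). Scn4b, a subunit that provides the resurgent-current block and is abundant in striatum, had the lowest value of any channel gene, -0.64 ± 0.18 (limma adjusted p = 0.057). It read 6.86, 6.59 and 6.65 after MCAO and 7.52, 6.90 and 7.59 in sham, so sham replicate 2 stood near the MCAO arrays. The striatal marker mean was lowest in that same sham array, at 7.65. Scn2b (-0.28, adjusted p = 0.0916) had all MCAO arrays below sham, and Scn3b (-0.21, adjusted p = 0.349) did not.

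Of the calcium channel pores, 0 of 10 passed in mouse at 6 h (limma, 1 negative and 1 positive at an unadjusted p under 0.05). Among the L-type genes Cacna1d, the pore that opens at less depolarized voltages, was at -0.17 (adjusted p = 0.0827), Cacna1c at -0.10 and Cacna1s at 0.08. The P/Q- and N-type pores, which drive transmitter release, lay at sham level, with Cacna1a at 0.03 and Cacna1b at 0.00, and the R-type pore Cacna1e was at -0.10. Cacna1a read 9.58, 9.51 and 9.40 after MCAO and 9.57, 9.46 and 9.38 in sham, with full overlap. The T-type pores ran from -0.18 for Cacna1i to 0.19 for Cacna1g (adjusted p = 0.162), a pore of thalamic and other burst-firing neurons.

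The auxiliary calcium channel subunits held the other falls. Cacna2d3, an alpha2delta subunit that promotes channel density at synaptic terminals, read 9.20, 9.10 and 8.94 after MCAO and 9.52, 9.37 and 9.50 in sham. The groups did not overlap, and the fold change was -0.38 ± 0.08 (95% interval -0.55 to -0.22, limma adjusted p = 0.0151), a level that fell by 23.3%. The other alpha2delta genes were all negative without passing: Cacna2d2 at -0.25 (adjusted p = 0.0733), Cacna2d1, the target of gabapentin, at -0.18 (adjusted p = 0.163) and Cacna2d4 at -0.11. Cacnb2, a beta subunit that chaperones alpha1 pores to the membrane, read 8.73, 8.82 and 8.78 after MCAO and 9.02, 9.14 and 9.20 in sham. These groups were also separate, at -0.34 ± 0.07 (limma adjusted p = 0.0159). A dimmer cluster of Cacnb2 read -0.15 ± 0.16 (unadjusted p = 0.358), so the fall rests on the brighter cluster. Without sham replicate 3 the calls of Cacna2d3 and Cacnb2 were lost (adjusted p = 0.0565 and 0.0618), and Cacnb4 and Cacnb1 were at -0.12 and 0.02.

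The gamma family had 0 of 8 passing in mouse at 6 h (limma, 2 negative at an unadjusted p under 0.05), from -0.26 for Cacng4 (adjusted p = 0.0884) to 0.03 for Cacng3. Cacng2, or stargazin, was at -0.20 and Cacng8, the hippocampal and cortical TARP, at -0.10. The HCN genes had 0 of 3 passing (1 positive at an unadjusted p under 0.05). Hcn2, a widely expressed HCN subunit, was at -0.13, Hcn3 at 0.05 and Hcn4, the slow pacemaker subunit of the heart and thalamus, at 0.22 (adjusted p = 0.117). Hcn4 read 4.24, 4.28 and 4.33 after MCAO and 4.02, 3.97 and 4.19 in sham, all below the array medians.

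**Figure D2:**
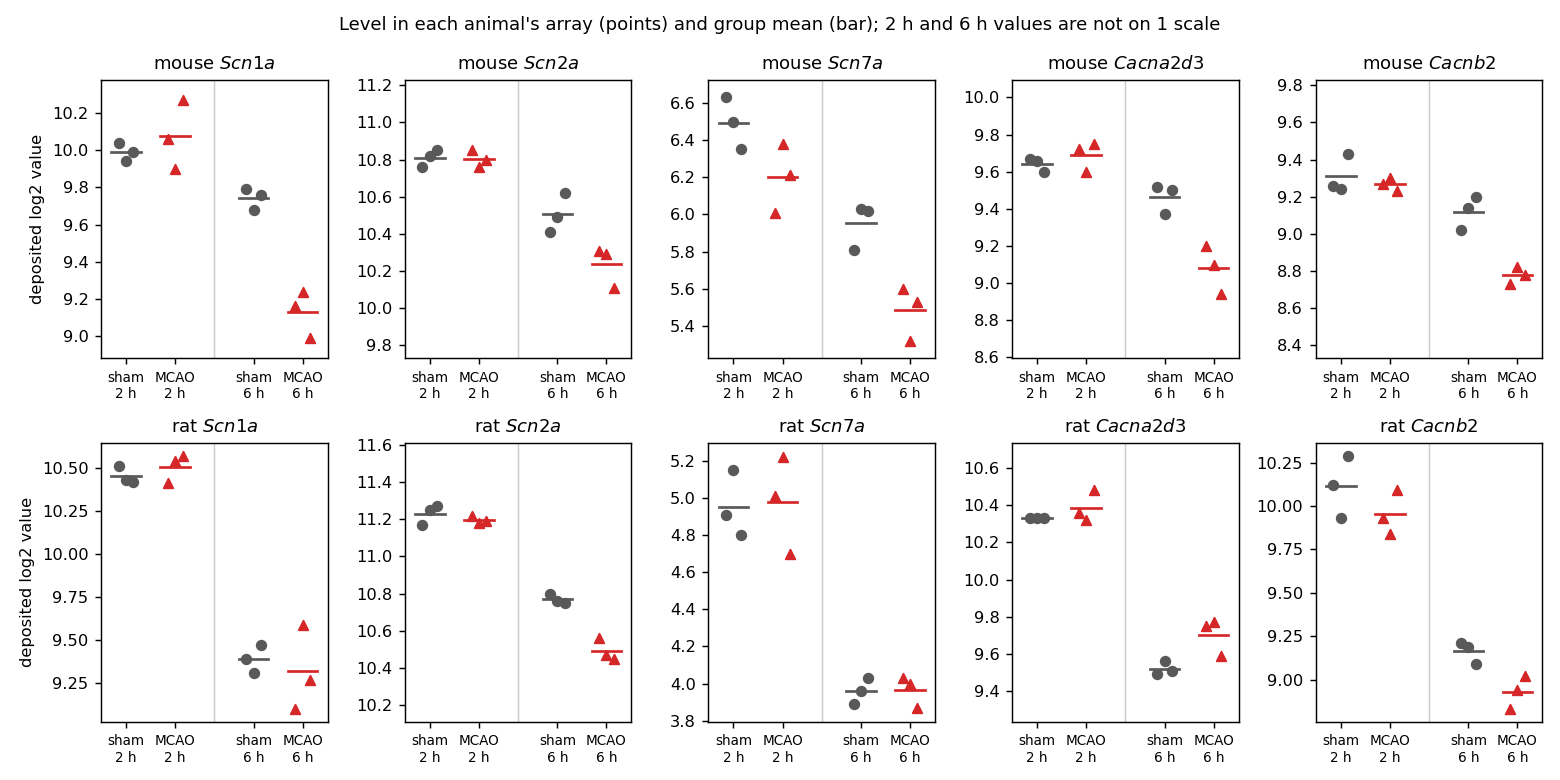
Deposited log2 value of the 5 channel genes called in either species, 1 point per animal with the group mean as a bar, for sham (grey circles) and MCAO (red triangles) at 2 h and 6 h in mouse (upper row) and rat (lower row). At 6 h the mouse MCAO points lie below every sham point in all 5 genes, whereas in rat this holds for Scn2a and Cacnb2 and the Cacna2d3 points lie above.

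In mouse at 6 h the striatal marker list moved with the groups. All 8 of its measured members were negative, 2 fell (Drd2 at -1.64 and Tac1 at -0.75), and its first listed gene, the dopamine receptor Drd1, was at -0.69 (adjusted p = 0.0806). The neuron marker mean was 10.57 to 10.61 after MCAO and 10.67 to 10.70 in sham (1 of 8 fell). The cortical excitatory neuron mean was 8.92 to 8.97 and 9.07 to 9.10 (2 of 7 fell). Of those 7 cortical markers 4 were positive, 1 of them at an unadjusted p under 0.05 in limma, and the list median was 0.0033. The interneuron mean was 8.23 to 8.31 and 8.37 to 8.39 (1 of 7 fell), and the microglia mean 7.06 to 7.21 and 7.32 to 7.35 (2 of 6 fell). The thalamic neuron mean was 6.79 to 6.90 and 6.95 to 7.07 (1 of 5 fell). In the endothelium list 1 of 6 rose and 1 fell, and in the astrocyte list 1 of 7 rose. On the high side, the oligodendrocyte mean was 9.23 to 9.28 and 8.95 to 9.19 (0 of 5 passed; 4 positive at an unadjusted p under 0.05 in limma), and the neutrophil mean 4.93 to 5.34 and 4.84 to 4.89 (1 of 6 rose). With the striatal marker mean as a covariate, 0 channel genes were called in mouse at 6 h, among 63 genes (0.284%) called in all. Scn1a was then at -0.56, Cacna2d3 at -0.27, Cacnb2 at -0.25, Scn7a at -0.59 and Scn2a at -0.20. Without sham replicate 2, the sham array with the low striatal mean, 5 channel genes were called, Scn1a, Cacna2d3 and Cacnb2 among them but neither Scn2a nor Scn7a. The part of the cell makeup of the pieces in these falls was otherwise not tested.

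**Figure D3:**
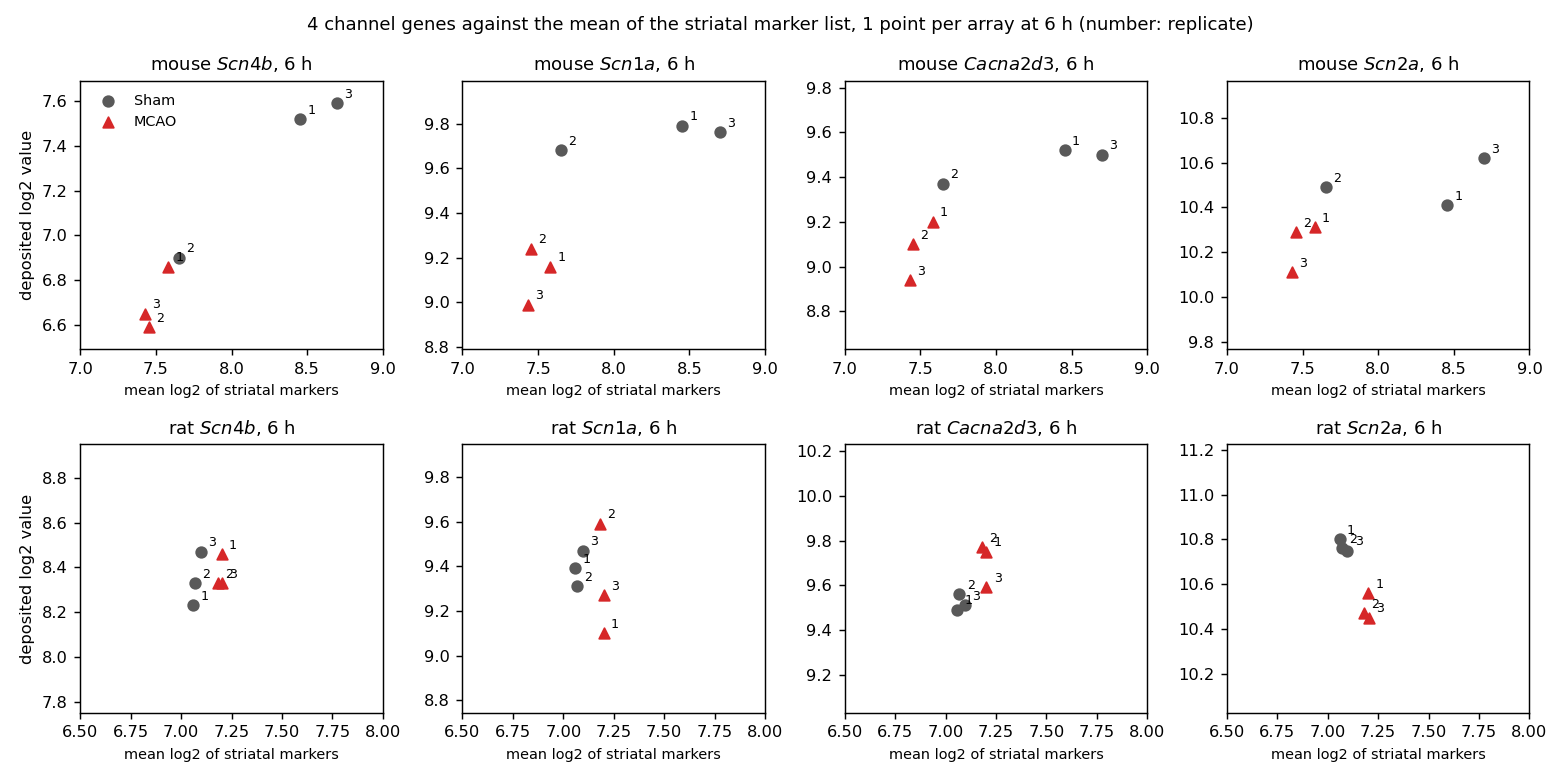
Log2 value of Scn4b, Scn1a, Cacna2d3 and Scn2a in each 6 h array (vertical axes) against the mean log2 value of the striatal marker list in the same array (horizontal axes), for mouse (upper row) and rat (lower row), with replicate numbers beside the points. In mouse, sham replicate 2 has a striatal mean of 7.65, next to the MCAO arrays at 7.43 to 7.58, with Scn1a at 9.68 and Scn4b at 6.90; in rat the striatal means run only from 7.06 to 7.20.

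In rat at 2 h, no channel gene passed. limma called 0 of 38, with 0 positive and 1 negative at an unadjusted p under 0.05, where 0.0661% of all genes were called and 3.32% and 3.77% had such an unadjusted p. That gene was Scn4b, at 8.99, 9.11 and 9.21 after MCAO and 9.30, 9.23 and 9.39 in sham (-0.20, unadjusted p = 0.036, limma adjusted p = 0.667). It was the 1 gene whose groups did not overlap, all MCAO arrays below sham, as for 7.57% of all genes, while 0 genes had all MCAO arrays above sham (5.54% of all genes). The median fold change was -0.022 against -0.0033 over all genes.

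The rat pores at 2 h were near sham, with Scn1a at 0.05, Scn2a at -0.03, Scn8a at -0.10, Cacna1a at 0.04, Cacna1b at 0.02, Cacna1c at -0.01, Cacna1e at 0.01 and Cacna1g at -0.15. Of the other T-type pores Cacna1i was at -0.04, and of the sodium beta subunits Scn2b and Scn3b were at 0.03. The sodium alpha group ran from Scn8a to Scn4a (0.11), the skeletal muscle subunit, and the L-type group from -0.02 for Cacna1d to 0.12 for Cacna1f. Alpha2delta values lay between -0.03 (Cacna2d2) and 0.12 (Cacna2d1), and calcium beta values between -0.16 (Cacnb2) and -0.07 (Cacnb4). Gamma values lay between -0.19 (Cacng5) and 0.14 (Cacng3), and HCN values between -0.05 (Hcn2 and Hcn4) and 0.11 (Hcn3).

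At 6 h in rat, 1 of the 38 channel genes fell, Scn2a, and 0 rose, where 3.62% and 2.85% of all genes did (6.47% in all). Scn2a read 10.56, 10.47 and 10.45 after MCAO and 10.80, 10.76 and 10.75 in sham. Every MCAO array was below every sham array, and the fold change of -0.28 ± 0.06 (95% interval -0.41 to -0.14, limma adjusted p = 0.0234) was a fall of 17.5%. The call was lost without any 1 of MCAO replicates 2 and 3 or sham replicates 1, 2 and 3 (adjusted p up to 0.0879), with the fold change between -0.31 and -0.26. It was also lost with the 6 arrays of 6 h alone and with all clusters tested, and it held with the striatal marker mean as a covariate. At an unadjusted p under 0.05 there were 3 positive and 5 negative channel genes, where 8.96% and 13.1% of all genes were. The median was 0.025 against -0.017 over all genes, and 14 of 38 (36.8%) were negative against 54.1% of all genes.

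In these rat arrays the striatal marker mean was 7.18 to 7.20 after MCAO and 7.06 to 7.10 in sham (0 of 9 members passed; 2 positive at an unadjusted p under 0.05 in limma). The neuron mean was 10.90 to 10.95 and 10.94 to 10.97 (0 of 8 passed; 1 positive and 2 negative at that level). The cortical excitatory neuron mean was 9.36 to 9.48 and 9.57 to 9.67, with 1 of 6 fallen, and the microglia mean 6.997 to 7.092 and 7.192 to 7.292, with 2 of 6 fallen and 1 risen. The oligodendrocyte precursor mean was 7.41 to 7.61 and 7.65 to 7.68 (0 of 6 passed; 1 negative at that level), and the endothelium mean 6.83 to 7.21 and 7.20 to 7.51 (1 of 5 fell). The interneuron mean was 8.51 to 8.60 and 8.44 to 8.50 (1 of 7 rose), the neutrophil mean 5.24 to 5.44 and 4.74 to 4.83 (1 of 5 rose), and the choroid plexus mean 5.37 to 5.57 and 5.01 to 5.31 (0 of 5 passed; 0 at an unadjusted p under 0.05 in limma). Of the 5 endothelium markers, 3 were negative and 1 positive at that level, with values from -1.9 to 0.473. In the pericyte and smooth muscle list and in the skeletal muscle list, both of which hold Des, 1 of 5 rose. The part of all these lists in the Scn2a fall was not tested beyond the striatal covariate.

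The other rat sodium channel genes at 6 h did not pass. Scn1a read 9.10, 9.59 and 9.27 after MCAO and 9.39, 9.31 and 9.47 in sham, with overlapping groups and a fold change of -0.07 ± 0.11 (adjusted p = 0.765). Scn8a was at -0.17 (adjusted p = 0.146) and Scn3b, a beta subunit, had the lowest value at -0.43 (adjusted p = 0.166), both with all MCAO arrays below sham. Scn4b was at 0.03, Scn2b at 0.00 and Scn4a at 0.10.

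The rat calcium channel genes at 6 h included values on the high side that missed the threshold. Cacna1b, the N-type pore, read 8.79, 8.81 and 8.89 after MCAO and 8.63, 8.61 and 8.55 in sham, at 0.23 ± 0.07 (limma adjusted p = 0.0653). Cacna1g, the T-type pore, read 8.41, 8.35 and 8.28 against 8.13, 7.96 and 7.90, at 0.35 ± 0.11 (limma adjusted p = 0.0723). Cacna2d3 read 9.75, 9.77 and 9.59 against 9.49, 9.56 and 9.51, at 0.18 ± 0.07 (limma adjusted p = 0.153). In these 3 genes and Cacna1a (0.14) all MCAO arrays were above sham, and 4 genes were separate in the other direction (Scn2a, Scn8a, Scn3b and Cacnb2), where 9.73% and 14.8% of all genes were. Cacnb2 was at -0.23 (adjusted p = 0.193), Cacnb4 at 0.06, Cacna2d4 at -0.20, Cacna1d at 0.10, Cacna1c at -0.01, Cacna1e at -0.10 and Cacna1h at -0.07. All 7 gamma genes were positive, from 0.0033 for Cacng7 to 0.18 for Cacng1, the skeletal muscle gamma subunit. All 3 HCN genes were too, with Hcn2 at 0.11, Hcn3 at 0.07 and Hcn4 at 0.35 (adjusted p = 0.242). Over all genes 54.1% were negative, and none of the gamma or HCN genes had an unadjusted p under 0.05.

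**Figure D4:**
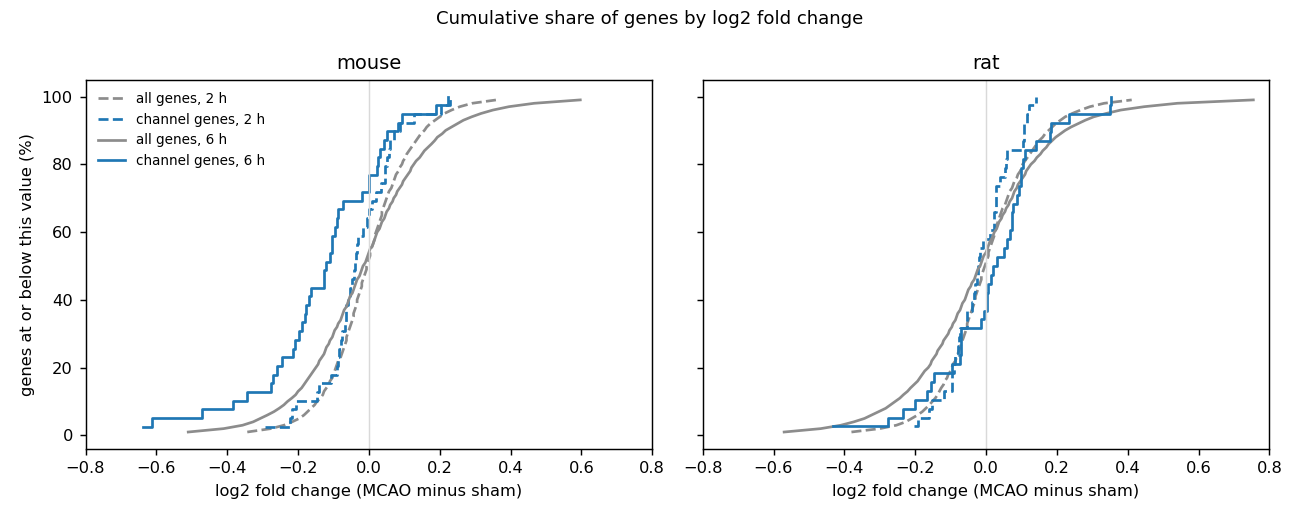
Cumulative share of genes (vertical axis, percent) at or below each log2 fold change (horizontal axis) for the channel genes (blue steps) and all genes tested (grey lines; the 1% to 99% range) at 2 h (dashed) and 6 h (solid), in mouse and rat. The mouse 6 h channel genes lie to the left of all genes, with medians of -0.12 and -0.017, and the rat 6 h medians are 0.025 and -0.017.

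The species were set against each other by testing, per gene, the mouse fold change minus the rat fold change. At 6 h, 2 of the 36 shared channel genes differed, both lower in mouse, where 2.27% of the 14204 matched genes differed and 1.19% were lower in mouse. Cacna2d3 was at -0.38 in mouse and 0.18 in rat, a difference of -0.57 ± 0.10 (95% interval -0.78 to -0.35, adjusted p = 0.00719 from the limma fits). Scn1a was at -0.61 and -0.07, a difference of -0.54 ± 0.14 (95% interval -0.84 to -0.25, adjusted p = 0.0438 from the limma fits). Scn2a, which fell in both species, was at -0.27 in mouse and -0.28 in rat, and the falls came from separate animals and arrays. In each species the Scn2a call was lost in 5 of 6 fits with 1 array left out. The share of all genes that fell in both species is not given here.

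The difference in Cacna2d3 kept its call whichever of the 12 arrays at 6 h was left out (adjusted p = 0.00359 to 0.0232). That in Scn1a kept it in 3 of 12 cases, without mouse MCAO replicate 2, mouse sham replicate 2 or rat MCAO replicate 1, and was otherwise lost (adjusted p up to 0.116), while without mouse sham replicate 2 the count of differences was 5. In all, 30 of 36 differences were negative, against 47.8% of all matched genes, and 11 had an unadjusted p under 0.05, where 16% of all matched genes had. Next in order were Cacng4 (-0.36, adjusted p = 0.0838), Cacna2d2 (-0.32, adjusted p = 0.0854), Scn4b (-0.67, adjusted p = 0.098) and Scn7a (-0.48, adjusted p = 0.139). With the striatal marker mean as a covariate, neither call held (Cacna2d3 at -0.45, adjusted p = 0.181, and Scn1a at -0.53, adjusted p = 0.262). At 2 h, 0 of 36 differed (0 at an unadjusted p under 0.05), where 0.0141% and 3.96% of all matched genes did. Strain, side of occlusion, filament and array design all change with the species and cannot be told apart from it.

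**Figure D5:**
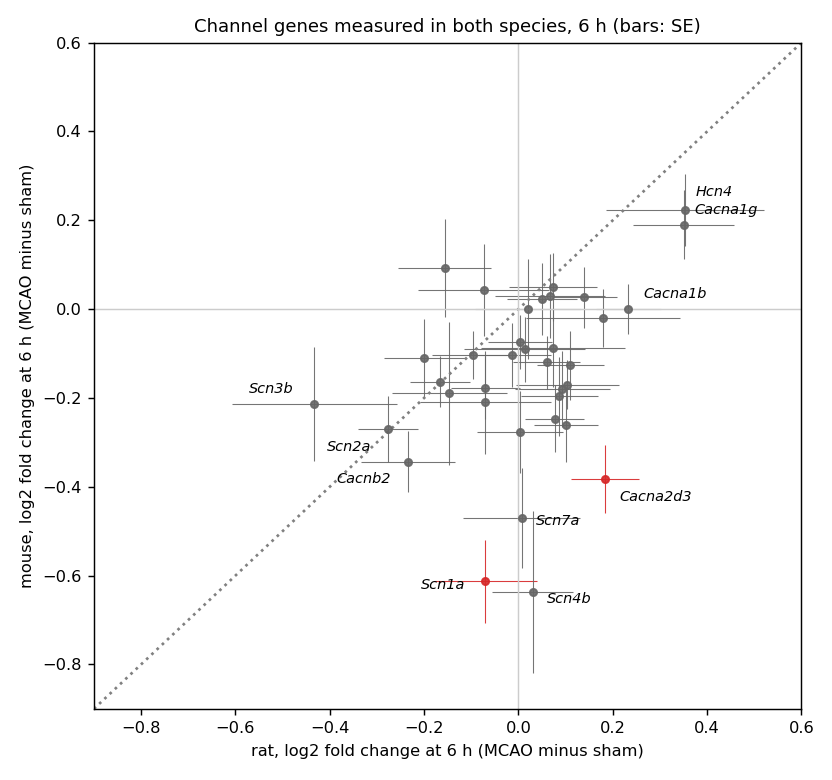
Log2 fold change at 6 h in mouse (vertical axis) against rat (horizontal axis) for the 36 channel genes measured in both, with SE bars and a dotted line of equal change. Scn1a (-0.61 and -0.07) and Cacna2d3 (-0.38 and 0.18), in red, had an adjusted p under 0.05 for the difference, while Scn2a (-0.27 and -0.28) lies on the line.

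The change of the occlusion effect from 2 h to 6 h passed for 0 of 39 channel genes in mouse (limma, 2 positive and 9 negative at an unadjusted p under 0.05), where 0.171% of all genes were called and 6.55% and 7.49% had such an unadjusted p. Scn1a came nearest, with its effect lower at 6 h by -0.70 ± 0.13 (limma adjusted p = 0.0654), followed by Cacna2d3 at -0.43 ± 0.11 (limma adjusted p = 0.128). In rat 0 of 38 passed (2 positive and 1 negative at an unadjusted p under 0.05), where 0.231% of all genes were called and 5.44% and 5.38% had such an unadjusted p. The rat gene of lowest p was Cacna1g, at 0.50 ± 0.15 (limma adjusted p = 0.235). With trend and robust eBayes, or with the brighter genes only, 2 mouse channel genes passed. The share of all genes called in those fits is not given here.

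Proteins that bind or regulate these channels were taken from a further list of 45 genes measured in mouse and 43 in rat. It was chosen with earlier results of these data known, so its counts describe the list only. At 2 h in mouse 1 of 45 rose, where 0.298% of all genes were called. This was Gem, a small GTPase that binds calcium channel beta subunits and silences the channel. Gem read 6.95, 7.33 and 7.02 after MCAO and 6.38, 6.18 and 6.31 in sham, far apart, at 0.81 ± 0.10 (limma adjusted p = 0.00407), a call lost when the 6 arrays of 2 h were fitted alone. In rat at 2 h, limma called 0 of 43 (1 positive and 1 negative at an unadjusted p under 0.05). Over all genes 0.0661% were called, and 3.32% and 3.77% had such an unadjusted p. Gem was the positive partner at 0.79 ± 0.36 (adjusted p = 0.7).

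At 6 h in mouse 3 of the 45 partners rose and 5 fell, where 3.21% and 4.23% of all genes did, with a list median of -0.073 against -0.017 over all genes. Without sham replicate 2 the count was 4, without sham replicate 3 it was 2, and without MCAO replicate 2 or 3 it was 5 or 4. The rises were Gem (0.60 ± 0.10, limma adjusted p = 0.0064), its relative Rrad (0.85 ± 0.17, limma adjusted p = 0.0145) and Stac, an adaptor of L-type channels (0.58 ± 0.14, limma adjusted p = 0.0273). Rrad read 6.89, 6.30 and 6.19 after MCAO and 5.60, 5.49 and 5.74 in sham, so MCAO replicate 1 stood highest and the groups did not overlap. The falls were Fgf14 (-0.32) and Fgf11 (-0.32), intracellular factors that bind sodium channel tails, Nalcn (-0.26), the sodium leak channel, Fam155a (-0.30), its auxiliary subunit, and Gria4 (-0.32), an AMPA receptor subunit. Their adjusted p lay between 0.0161 for Fam155a and 0.0459 for Fgf11. All 4 FGF partners and all 9 genes of the AMPA receptor list (subunits, auxiliary proteins and a scaffold) were negative, where 53.6% of all genes were. Of these 2 lists, 2 and 1 genes fell, where 4.23% of all genes did. Of the 8 scaffold genes of the axon initial segment, where sodium channels cluster, 0 passed (limma, 1 positive and 2 negative at an unadjusted p under 0.05).

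At 6 h in rat 1 of the 43 partners rose and 1 fell, where 2.85% and 3.62% of all genes did, with a list median of -0.053 against -0.017 over all genes. Without sham replicate 2 the count of calls was 0 in place of 2, and without MCAO replicate 2 or 3 or sham replicate 1 or 3 it was 1. Gem read 7.51, 7.17 and 9.01 after MCAO and 6.55, 6.26 and 5.93 in sham, at 1.65 ± 0.36 (limma adjusted p = 0.0189). MCAO replicate 3 stood highest, and the other MCAO arrays were still above every sham array. Cnih2, a cornichon protein that accompanies TARPs on AMPA receptors, read 9.70, 9.45 and 9.39 against 10.07, 10.17 and 9.95, at -0.55 ± 0.12 (limma adjusted p = 0.0222). The genes that fell in mouse were at -0.13 (Fgf14), -0.12 (Fgf11), -0.15 (Nalcn) and -0.13 (Gria4) in rat and did not pass, and Rrad was at 0.20 (adjusted p = 0.228). The species difference of these partners was computed with that of all matched genes but is not reported here, so no difference between species is read from these values.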

How the data were processed

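RNA integrity numbers were above 7.5 and RNA was labelled with a whole-transcript kit, per the labels' protocols. The authors deposited 1 table of log2 values per species, to 2 decimals, made with oligo and limma per the submitters' processing notes. How the arrays were background-corrected and normalized is not stated in what was used here. Titles gave groups, replicate numbers and times, because the characteristics field for time carries 2 h throughout. Genes were named through the platform annotation, and clusters with several symbols were left out.

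A group-means model of the 12 arrays of a species was fitted in limma 3.58.1 (R 4.3.3), leaving 8 residual degrees of freedom, with two-sided moderated tests. Species differences used the moderated standard errors with Welch-Satterthwaite degrees of freedom over 14204 matched symbols. An exact permutation test of 3 against 3 cannot go below 0.1. In simulated arrays with changes of known size, limma recovered 12% of mouse and 6% of rat changes of 0.25 at 6 h. For changes of 0.5 it was 68% in each species. Of the calls at 6 h in the simulated arrays, 6.8% in mouse and 8.22% in rat were false. For the species difference at 6 h, 2.82% of differences of 0.25 were recovered, and for the change over time 0% in either species. A gene that did not pass may thus still have changed. In each species, fewer genes were changed in the simulated arrays than were called in the data at 6 h. The simulated shares need not hold for the data. Each array is a separate animal, and their number limits the precision.

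Every called channel gene is named with its arrays, and every called partner with its value, each subunit type by its highest and lowest gene, and the main brain pores always; others were chosen after their values were seen. Members and lists were chosen with earlier results of these data known. Alternatives were the 6 arrays of a time alone, each array left out, the replicate block, trend and robust eBayes, array weights, quantile normalization, median centring, brighter genes only, all clusters, mean clusters and a striatal marker covariate. Promoter windows are from RefSeq (GRCm38.p6), matched by symbol for 30 of 39 mouse genes.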

Additional observations from a re-analysis of the deposited data

Results flagged for a closer look

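The occlusion effect at 6 h differed between the species for Cacna2d3, with a mouse minus rat difference of -0.57 (95% interval -0.78 to -0.35), and for Scn1a, with -0.54 (95% interval -0.84 to -0.25). In both genes all 3 mouse MCAO arrays lay below the mouse sham arrays. The rat MCAO arrays lay above sham for Cacna2d3 and overlapped sham for Scn1a. With 1 array left out, the Cacna2d3 call was kept in 12 of 12 cases and the Scn1a call in 3. Of 9 other settings, 8 kept the Cacna2d3 call and 4 the Scn1a call. Neither call held with the striatal marker mean as a covariate.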

How the results depend on the processing

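Counts of called genes depended on the fit. With the 6 arrays of a time alone, mouse had 0 partners called at 2 h, then 1 channel gene and 1 partner at 6 h, and rat 0 channel genes and 1 partner at 6 h. Trend and robust eBayes gave 11 channel genes and 16 partners in mouse and 4 and 5 in rat, all at 6 h, and 2 channel genes for the mouse change over time. Brighter genes only gave 10 channel genes in mouse at 6 h, 2 for the mouse change over time, 3 channel genes and 6 partners in rat at 6 h, and 5 species differences. All clusters gave 3 channel genes and 5 partners in mouse, 0 and 1 in rat, and 1 species difference, all at 6 h. Quantile normalization gave 2 channel genes in rat and 1 species difference, array weights gave 1 species difference, and the striatal covariate gave 0 channel genes, 0 partners and 0 species differences, the rat count apart. Leaving out 1 array gave 1 to 5 channel genes and 2 to 8 partners in mouse, 0 to 1 and 0 to 3 in rat, and 1 to 5 species differences, all at 6 h. Of all genes at 6 h, 1.11% in mouse and 2% in rat were called with the 6 arrays alone, and 0.104% in mouse at 2 h. At 6 h, trend and robust eBayes called 11.6% and 9.35% of all genes, and the striatal covariate 0.284% and 3.85%. For the other settings and for the change over time, the share of all genes called is not given here. Those counts describe the lists only. The causes were not tested.

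With the replicate block, calls at 6 h were 1 channel gene and 2 partners in mouse and 1 species difference, and at 2 h 0 partners in mouse. In rat at 6 h the Scn2a call was lost with it, and the 1 channel gene called was positive. Same-numbered arrays correlated between -0.125 and 0.327 in their deviations from the group means, so the numbers were not taken to pair the animals.

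Some fold changes that passed no test turned sign. In rat at 2 h, Cacna1c was 0.010 and Cacna1d 0.022 with array weights, and 0.029 and 0.020 with quantile normalization, which put Cacna2d2 at 0.011. Median centring gave -0.0067 for mouse Cacnb4 and rat Cacna1e in 2 h tissue and rat Cacng7 in 6 h tissue. The striatal covariate put mouse Scn2a at 0.0084 and rat Scn1a, Scn2a, Cacna1e and Cacng3 at -0.0052, 0.0082, -0.0060 and -0.032 in 2 h tissue, and rat Cacna1c at 0.045 in 6 h tissue. Leaving out 1 array in mouse at 2 h gave Cacna2d4 -0.18 to 0.0033, Cacnb4 -0.018 to 0.058, Cacng3 -0.0033 to 0.13, Scn1a -0.010 to 0.18, Scn2a -0.032 to 0.015 and Scn2b -0.070 to 0.020. In mouse at 6 h it gave Cacna1a -0.018 to 0.077, Cacnb1 -0.032 to 0.078 and Cacng3 -0.035 to 0.12. In rat at 2 h it gave Cacna1a -0.0033 to 0.072, Cacna1b -0.018 to 0.057, Cacna1c -0.053 to 0.067, Cacna1d -0.083 to 0.047, Cacna1e -0.037 to 0.058, Cacna1f -0.0017 to 0.20, Cacna1i -0.11 to 0.0067 and Scn2b -0.027 to 0.073. In rat at 6 h it gave Cacna1c -0.070 to 0.040, Cacna1d -0.0083 to 0.21, Cacna1h -0.19 to 0.047, Cacng7 -0.043 to 0.032, Scn1a -0.21 to 0.040, Scn4a -0.018 to 0.19 and Scn4b -0.027 to 0.093.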
